A study of Mus musculus with 6 samples.

Results

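The GATA1 complex and its partner transcription factors were followed as 10 genes: Gata1, Gata2, Zfpm1, Tal1, Lyl1, Lmo2, Ldb1, Gfi1b, Runx1 and Myb. Every probe set that the platform annotation assigns to exactly 1 of these symbols was taken, which gave 19 probe sets for 10 of the 18193 named genes on the array. All 19 passed the filter on low signals. RNA came from megakaryocyte progenitors of C57BL/6 mice, and both groups carried the GATA1s genotype, in which a shortened GATA1 protein without its amino-terminal part replaces the full-length protein. There were 3 arrays of fetal liver at E13.5 and 3 of bone marrow from mice of 12 to 18 weeks. In both tissues the cells were flow-sorted as lin-, Sca-1-, c-kit+, CD150+ and CD41+, a gate that enriches progenitors of the platelet lineage. Samples of a group are labelled biological replicates, with the number of animals behind each unstated, so a p-value reflects only the spread of these samples. Cells of normal genotype were not analysed here, and a tissue difference cannot be set against theirs.

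GATA1 is the zinc finger transcription factor that drives erythroid and megakaryocyte differentiation, and it works with FOG1, the protein of Zfpm1, and in a complex with TAL1, LMO2 and LDB1 on paired E-box and GATA sites. GATA2 holds many of the same sites in earlier progenitors and is replaced by GATA1 during maturation. LYL1 is the close relative of TAL1, GFI1B is a repressor that GATA1 induces, RUNX1 cooperates with GATA1 in megakaryocytes, and MYB maintains immature progenitors and restrains megakaryocyte output. The comparison asks whether progenitors of the same genotype and gate carry this network at the same transcript levels in the fetal and the adult tissue.

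The values are MAS5 signals, which are linear intensities scaled on every array to a trimmed mean of 500. Median signal was 52.0 to 59.1 on the fetal liver arrays and 65.9 to 74.6 on the bone marrow arrays. Bacterial control probe sets that received no spike marked the background, with a control level (their 95th percentile) of 10.6, and the lowest signal of any member probe set on any array was 29.2. The labelled cell type was checked on 7 genes of the gate and the lineage, of which 1 was called higher in fetal liver, 1 lower and 5 not (limma, adjusted p under 0.05). Over all 11645 genes, each read from its brightest probe set, 15.9% were called higher and 17.3% lower, so these counts are near the share of all genes. Values in parentheses are log2 fold changes, fetal liver minus bone marrow, with their SE. Itga2b, the gene of CD41, had signals of 3329.9, 5307 and 4924 in fetal liver, against 4912, 4501 and 3841 in bone marrow, and was not called (0.012 ± 0.16, adjusted p = 0.965). Slamf1, the gene of CD150, had 1014, 2618 and 3024 in fetal liver, against 1842, 2202 and 2303 in bone marrow, and was not called either (-0.073 ± 0.33, adjusted p = 0.895). Kit, the third gate gene, was the one called lower, with 1542, 959 and 1173 in fetal liver, against 1793, 1909 and 1833 in bone marrow (-0.62 ± 0.16, adjusted p = 0.0170), and Gp9, of the platelet adhesion receptor, the one called higher (1.23 ± 0.18, adjusted p = 0.000870). Vwf, which encodes von Willebrand factor, was lower on every fetal liver array than on any bone marrow array and was not called (-0.66 ± 0.27, adjusted p = 0.0966), and the arrays of Pf4 and Gp1bb overlapped. Fetal liver replicate 1 was the lowest array for Itga2b, Slamf1, Pf4, Gp1bb and Vwf, and for the summed signal of the 7 genes, which was 16483 there and 25858 to 28045 on the other fetal liver arrays, against 22060 to 24194 in bone marrow. Members are therefore given with and without that array wherever leaving it out changed a call.

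Of the 10 genes, each read from its brightest probe set, 6 were called higher in fetal liver and 0 lower (limma, Benjamini-Hochberg adjusted p under 0.05 over 27022 probe sets). The 6 were Lyl1, Gfi1b, Gata1, Zfpm1, Runx1 and Tal1, and the 4 that were not called were Gata2, Lmo2, Ldb1 and Myb. Myb was read here from an _x_at probe set, whose probes can also match other transcripts, and a dimmer Myb probe set was called lower. Over all 11645 genes read in the same way, 33.2% were called in either direction, 15.9% higher and 17.3% lower. The arrays of those 6 genes did not overlap between the tissues, and those of the other 4 did; over all genes 50.5% did not overlap, 26.7% higher and 23.7% lower. At the level of probe sets, 7 of the 19 were called higher and 1 lower, where 26.8% of all probe sets were called, 11.8% higher and 15.0% lower. The median log2 fold change, given as fetal liver minus bone marrow throughout, was 0.29 over the 19 member probe sets and 0.00027 over all probe sets tested. Of all calls 44.1% were higher in fetal liver, a split that depended on scaling: it was 55.4% after quantile normalization and 78.7% after median centring, which raised the median of all probe sets by 0.34.

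**Figure D1:**
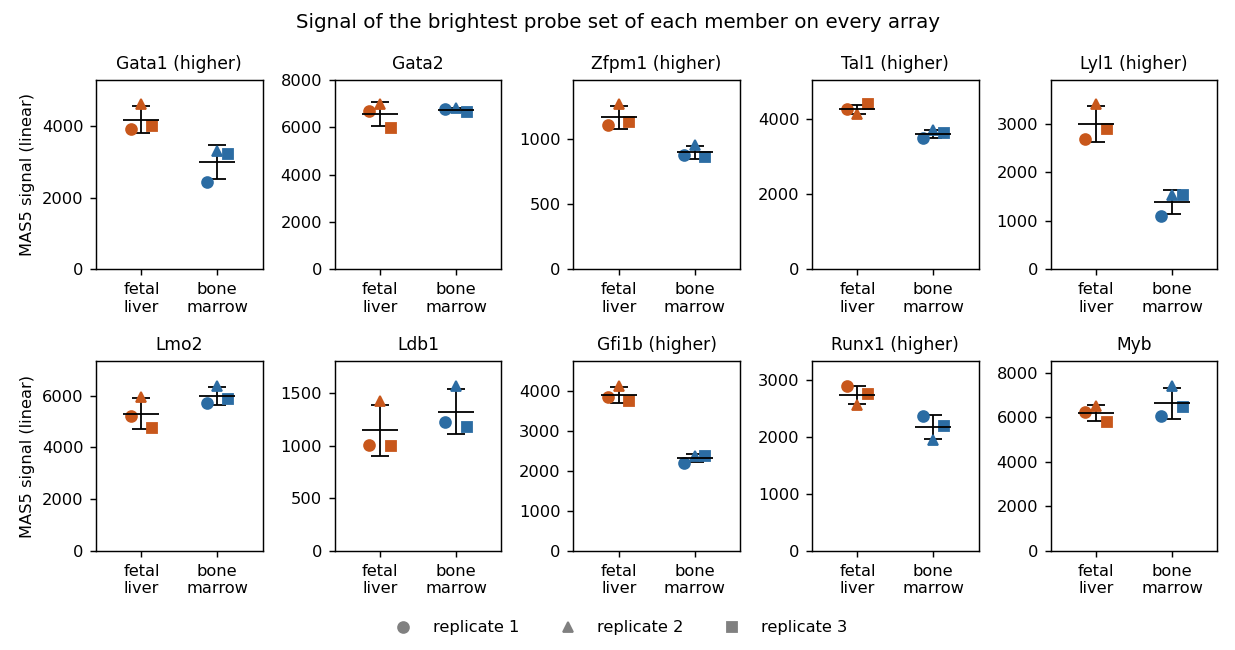
Signal of the brightest probe set of each of the 10 genes on every array. Each panel has MAS5 signal on a linear axis from 0; symbols are the replicates, the horizontal mark is the mean and the bar 1 SD, and "higher" marks genes called higher in fetal liver. Lyl1 and Gfi1b show the widest gaps between the tissues, while the arrays of Gata2, Lmo2, Ldb1 and Myb overlap.

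Gata1 itself was higher in fetal liver. Its single probe set, 1449232_at, had a signal of 3931, 4615 and 4019 on the fetal liver arrays of replicates 1, 2 and 3, against 2453, 3326 and 3218 on the bone marrow arrays. All 3 fetal liver arrays lay above all 3 bone marrow arrays, and bone marrow replicate 1 was the lowest of the 6. The means were 4188 ± 372 in fetal liver and 2999 ± 476 in bone marrow (SD, n = 3 each), a log2 fold change of 0.49 ± 0.12 (SE, limma adjusted p = 0.0165). Leaving out fetal liver replicate 2 ended the call (0.42, adjusted p = 0.0523), as did unmoderated or untrended variances (adjusted p = 0.121 and 0.0727). Without bone marrow replicate 1 the call held, but the estimate was the smallest of any single array left out (0.35, adjusted p = 0.0423). The sources used here do not say where the probes lie relative to the part that the shortened form lacks, so this signal is no check of the genotype. In sorted populations such as these, fewer cells of a type and less RNA per cell cannot be told apart.

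Gata2, which precedes Gata1 in the lineage, was not called on either of its 2 probe sets. The brighter, 1428816_a_at, had 6691, 6973 and 5991 in fetal liver, against 6771, 6833 and 6659 in bone marrow, so the arrays overlapped, and its log2 fold change was -0.047 ± 0.076 with a 95% interval of -0.22 to 0.12 (adjusted p = 0.692). On 1450333_a_at the signals were 4778, 4619.7 and 4129.6 in fetal liver, against 4928, 5159 and 5053 in bone marrow. There every fetal liver array lay below every bone marrow array, by a small margin, at a log2 fold change of -0.16 ± 0.080 (adjusted p = 0.162). Quantile normalization called this second probe set lower (-0.26, adjusted p = 0.0199), whereas median centring turned the sign of both without a call.

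The balance of the 2 GATA factors was followed as the difference of their log2 signals on the same array, which does not depend on the factor by which a whole array is scaled. Gata1 minus Gata2 was -0.77, -0.60 and -0.58 in fetal liver, against -1.46, -1.04 and -1.05 in bone marrow. The fetal liver arrays all lay above the bone marrow arrays, with a mean difference of 0.54, or 1.45-fold. An exact two-sided permutation test gave p = 0.1, which is the smallest that 3 arrays against 3 can give, and 0.1 after adjustment over the 3 ratios examined. Leaving out single arrays kept the difference between 0.40, without bone marrow replicate 1, and 0.61.

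Zfpm1, the gene of the GATA1 cofactor FOG1, was higher in fetal liver by a smaller amount. Its brighter probe set, 1451046_at, had 1108, 1269 and 1134 in fetal liver, against 879, 957 and 864 in bone marrow, and its arrays did not overlap between the tissues. The log2 fold change was 0.38 ± 0.11 (adjusted p = 0.0333). The second probe set, 1423603_at, gave a near-equal estimate of 0.40 ± 0.17, with signals of 229, 222 and 251 in fetal liver, against 196, 174 and 163 in bone marrow, and its arrays did not overlap either, but it was not called (adjusted p = 0.118). The call on the brighter probe set held without fetal liver replicate 1 and was lost when any other single array was left out, with adjusted p between 0.0508 and 0.132.

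Both related basic helix-loop-helix factors were called higher in fetal liver. Lyl1, measured on 1419120_at, showed the largest difference of the 10 genes, with 2692, 3395 and 2886 in fetal liver, against 1107, 1532 and 1537 in bone marrow. The lowest fetal liver array stood well above the highest bone marrow array. The means were 2991 ± 363 in fetal liver and 1392 ± 247 in bone marrow (SD, n = 3 each), a 2.16-fold difference (log2 fold change 1.11 ± 0.15, adjusted p = 0.000430).

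Tal1, the LYL1 relative that binds DNA in the GATA1 complex, was measured on 1449389_at and had 4249, 4130.4 and 4382 in fetal liver, against 3484, 3704 and 3628 in bone marrow. The arrays did not overlap, but the difference was small, 1.18-fold (log2 fold change 0.24 ± 0.075, adjusted p = 0.0411). The Tal1 call held without fetal liver replicate 2 and was lost without any other single array (adjusted p 0.0613 to 0.139), with no filter (0.0752) and after quantile normalization (0.16, adjusted p = 0.114). Within arrays, Tal1 minus Lyl1 was 0.66, 0.28 and 0.60 in fetal liver, against 1.65, 1.27 and 1.24 in bone marrow, so Lyl1 was higher relative to Tal1 on every fetal liver array. The mean difference of that ratio was -0.87 (exact two-sided permutation p = 0.1, adjusted 0.1).

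The genes of the bridging proteins were not called. Lmo2, the LIM-domain adaptor between TAL1 and the GATA factor, was measured on 1454086_a_at and had 5226, 5930.3 and 4738 in fetal liver, against 5707, 6372 and 5851 in bone marrow, with overlapping arrays. Its log2 fold change was -0.18 ± 0.094, with a 95% interval of -0.39 to 0.031 (adjusted p = 0.195). It was called lower without fetal liver replicate 2 (-0.26, adjusted p = 0.0377) and after quantile normalization (-0.28, adjusted p = 0.00962), and had the opposite sign after median centring (0.16, not called). Ldb1, which dimerises and so joins complexes bound at distant sites, was measured on 1452024_a_at and had 1009, 1426 and 993 in fetal liver, against 1219, 1565 and 1173 in bone marrow. Its arrays overlapped widely, replicate 2 was the highest array in both tissues, and the log2 fold change was -0.22 ± 0.17 with an interval of -0.59 to 0.16 (adjusted p = 0.384).

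Gfi1b, the repressor needed for both erythroid and megakaryocyte maturation, had the smallest p of the group. On 1420399_at the signals were 3847, 4128 and 3744 on the fetal liver arrays of replicates 1, 2 and 3, against 2207, 2369.8 and 2376 on the bone marrow arrays. The replicates were close in both tissues and the groups lay far apart relative to that spread, at 3906 ± 199 in fetal liver and 2317 ± 95.9 in bone marrow (SD, n = 3 each). The difference was 1.69-fold (log2 fold change 0.75 ± 0.084, adjusted p = 0.000157). Gfi1b and Lyl1 were the members called under all 15 alternatives that were run.

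Its paralogue Gfi1, known for its part in granulocyte and lymphoid cells, moved the other way. Gfi1 had a signal of 16.3, 32.9 and 10.3 in fetal liver, against 139, 301 and 239.7 in bone marrow (log2 fold change -3.61 ± 0.44, adjusted p = 0.000286), and fetal liver replicate 3 lay below the control level. Gfi1b minus Gfi1 was 7.89, 6.97 and 8.50 in fetal liver, against 3.98, 2.98 and 3.31 in bone marrow. The mean difference was 4.36 (exact two-sided permutation p = 0.1, adjusted 0.1), or 3.87 with an offset added before the logarithm. Every fetal liver array was above every bone marrow array for Gfi1b and below for Gfi1, so their difference had to separate the tissues. That fixed the permutation p at 0.1 beforehand, and the test adds nothing to the single-gene results. Granulocyte and monocyte markers fell with Gfi1: 12 of 12 were called lower in fetal liver, where 17.3% of all genes were. Their summed signal was 7317 to 9235 in fetal liver, against 55486 to 67419 in bone marrow, with none averaging below the control level in either tissue. Their part in the Gfi1 result was not tested.

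**Figure D2:**
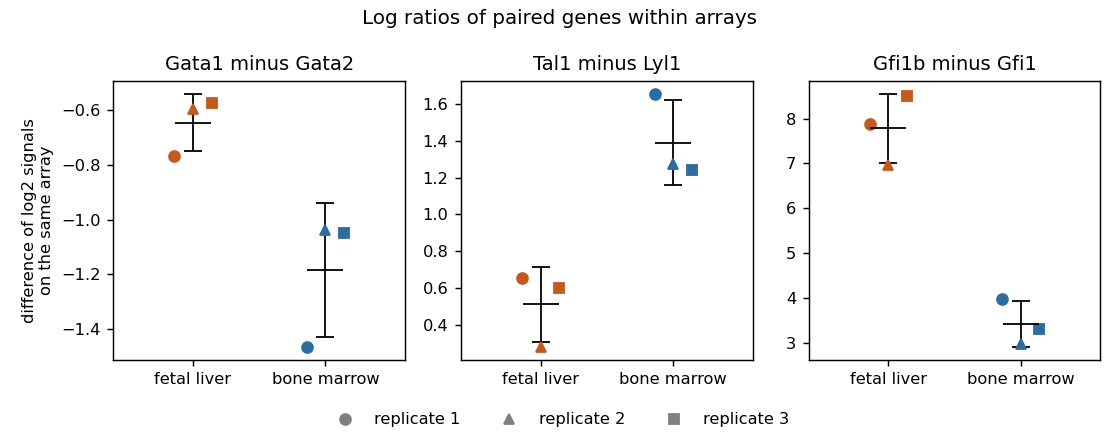
Difference of log2 signals of 2 genes on the same array, for 3 pairs of genes. Symbols are replicates, the horizontal mark is the mean and the bar 1 SD of 3 arrays; in each panel the fetal liver and bone marrow arrays do not overlap, with mean differences of 0.54, -0.87 and 4.36.

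The promoters of Gfi1b, Lyl1 and Gata1 are shown, the members with the largest differences when each gene is read from its brightest probe set, because these were called in the same direction and the network's own factors read GATA words and E-boxes. The windows run from 250 bases before to 50 after the annotated start, are taken from RefSeq on build GRCm38.p6 and are written on the gene's strand. Capitals mark GATA words (AGATAA and AGATAG, and with a leading T the words TGATAA and TGATAG, on both strands) and E-boxes (CANNTG, which reads as itself on the other strand).
Gfi1b (chr2:28621933-28622232, minus strand): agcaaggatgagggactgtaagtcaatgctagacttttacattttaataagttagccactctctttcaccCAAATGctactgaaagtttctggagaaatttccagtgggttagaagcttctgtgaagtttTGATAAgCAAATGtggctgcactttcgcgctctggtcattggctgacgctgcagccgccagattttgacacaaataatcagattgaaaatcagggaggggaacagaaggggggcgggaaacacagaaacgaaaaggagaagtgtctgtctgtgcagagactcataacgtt
Lyl1 (chr8:84701207-84701506, plus strand): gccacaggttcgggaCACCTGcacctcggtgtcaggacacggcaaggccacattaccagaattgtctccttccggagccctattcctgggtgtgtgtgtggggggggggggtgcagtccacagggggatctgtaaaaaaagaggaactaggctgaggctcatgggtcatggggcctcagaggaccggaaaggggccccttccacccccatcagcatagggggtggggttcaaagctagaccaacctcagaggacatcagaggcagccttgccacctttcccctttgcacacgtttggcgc
Gata1 (chrX:7967861-7968160, minus strand): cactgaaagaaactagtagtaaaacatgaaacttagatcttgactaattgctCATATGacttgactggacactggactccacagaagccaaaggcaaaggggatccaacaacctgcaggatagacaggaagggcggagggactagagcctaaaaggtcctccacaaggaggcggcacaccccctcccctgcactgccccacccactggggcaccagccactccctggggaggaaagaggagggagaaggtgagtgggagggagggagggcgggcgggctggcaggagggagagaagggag
The Gfi1b window held 1 GATA word, TGATAA, whose first base lies 120 bases before the start, and 2 E-boxes of the form CAAATG, of which the nearer begins 113 bases before the start. These do not overlap. The Lyl1 window held 1 E-box, CACCTG, 235 bases before the start, and the Gata1 window 1, CATATG, 198 bases before it; neither held a GATA word. Windows were found for 9 members, all but Lmo2, and some genes had several, which gave 14 windows. Of the 14, 3 held a GATA word, in Gfi1b, Tal1 and Ldb1, and 8 held an E-box. Of all 32851 windows of this length 29.8% held a GATA word and 72.3% an E-box. A match is a description of letters in this window and not a bound site.

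Runx1, a partner of GATA1 in megakaryocytes, was measured by 6 probe sets, and all 6 estimates were positive, from 0.20 to 0.60. These probe sets share a gene and are not independent replicates. The brightest, 1422864_at, had 2889, 2559 and 2743 in fetal liver, against 2356, 1939 and 2196 in bone marrow (log2 fold change 0.34 ± 0.10, adjusted p = 0.0343). The next, 1440878_at, had 1787, 2043 and 2232 in fetal liver, against 1728, 1363 and 1405 in bone marrow (log2 fold change 0.43 ± 0.13, adjusted p = 0.0309). On both, the fetal liver arrays stood above the bone marrow arrays without overlap.

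The other 4 Runx1 probe sets were not called, and their arrays overlapped. Leaving out 1 array brought 3 of them a call: 1422865_at without fetal liver replicate 2 (adjusted p = 0.0475), 1427650_a_at without bone marrow replicate 1 (0.0436) and 1452530_a_at without bone marrow replicate 1 (0.0294). On 1422865_at, fetal liver replicate 2 was the lowest of all 6 arrays, at 1237, while the other fetal liver arrays had 1919 and 2090.2, against 1314 to 1709 in bone marrow. The 2 dimmest, 1452530_a_at and 1452531_at, had the largest estimates, 0.60 on each, with the widest intervals, -0.12 to 1.32 and -0.19 to 1.40. The call on 1422864_at was lost without fetal liver replicate 1 or 3 or bone marrow replicate 2 or 3 (adjusted p 0.0746 to 0.123). That on 1440878_at was lost without fetal liver replicate 2 or 3 or bone marrow replicate 2 or 3 (0.0715 to 0.120). Unmoderated or untrended variances ended both calls (adjusted p 0.0869 to 0.127), and quantile normalization that on 1422864_at (0.0515).

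Myb, the progenitor factor, gave 3 probe sets that differed in size. The brightest, 1421317_x_at, had 6252, 6520.3 and 5813 in fetal liver, against 6052, 7412 and 6449 in bone marrow, with overlapping arrays and a log2 fold change of -0.10 ± 0.089 (interval -0.30 to 0.10, adjusted p = 0.470). The suffix _x_at denotes probes that can also match other transcripts, so this reading of Myb is uncertain. On 1450194_a_at the signals were 4478, 3318 and 3217 in fetal liver, against 4401, 4542 and 4414 in bone marrow (log2 fold change -0.29 ± 0.12, adjusted p = 0.102). Fetal liver replicate 1 lay inside the bone marrow range there and the other fetal liver arrays below it, and without replicate 1 the probe set was called lower (-0.45, adjusted p = 0.00304).

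The third Myb probe set, 1422734_a_at, was the only member probe set called lower in fetal liver. It had 3265, 2077 and 2274 in fetal liver, against 3969, 3236 and 3491 in bone marrow, with fetal liver replicate 1 just above bone marrow replicate 2. The log2 fold change was -0.51 ± 0.16 (adjusted p = 0.0383), and -0.71 (adjusted p = 0.00120) without that replicate. The call was lost when any of the other 5 arrays was left out (adjusted p 0.0573 to 0.120) and after median centring (-0.18, adjusted p = 0.339). On the 2 dimmer probe sets, fetal liver replicate 1 thus stood nearer to bone marrow than its replicates did, the same array that was lowest for the megakaryocyte markers; the part of those markers in the Myb result was not tested.

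**Figure D3:**
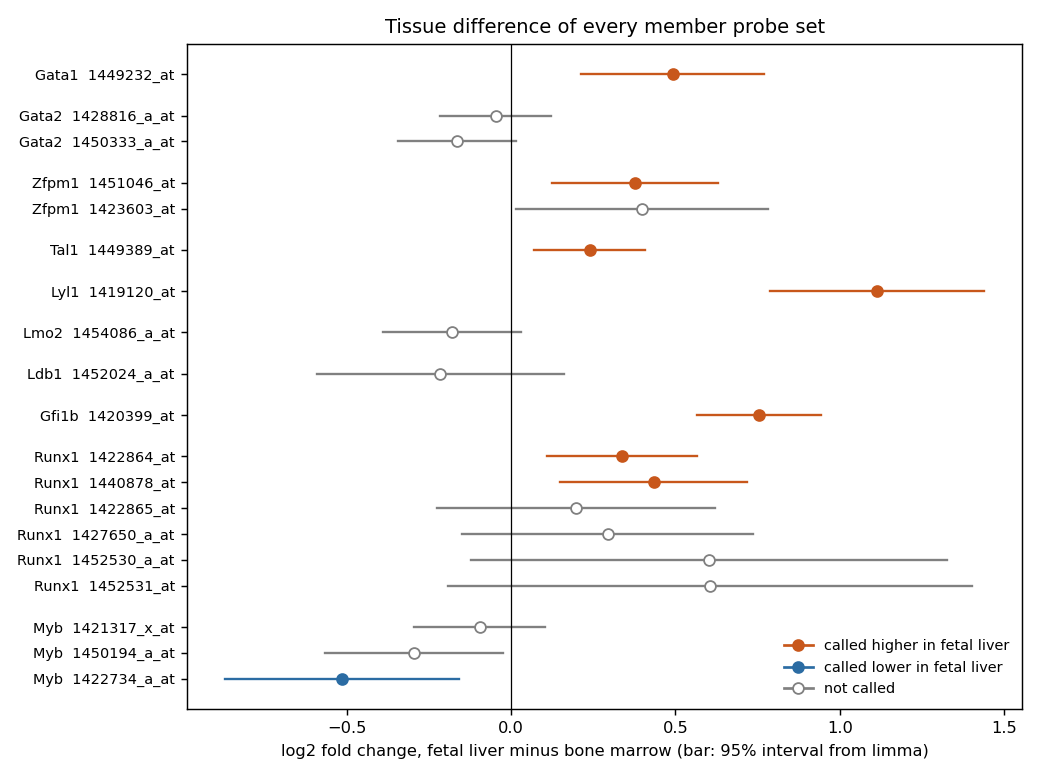
Tissue difference (log2 signal in fetal liver less that in bone marrow) of all 19 member probe sets, with 95% intervals from limma. Filled orange points were called higher in fetal liver (7), the filled blue point lower (1) and open points were not called (11); all 6 Runx1 estimates lie right of 0 and all 3 Myb estimates left of it.

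Across the 19 probe sets, 9 had arrays that did not overlap between the tissues, 8 of them higher in fetal liver and 1, a Gata2 probe set, lower. Over all probe sets tested, 43.0% did not overlap, 21.0% higher and 22.0% lower. The calls differed in how far they depended on processing and on single arrays. Lyl1 and Gfi1b were called in 15 of 15 alternatives and Gata1 in 12, whereas Zfpm1 and Runx1 were called in 8 and Tal1 in 6. Without fetal liver replicate 3, bone marrow replicate 2 or bone marrow replicate 3, the number of member genes called fell to 3. Calls over all probe sets fell as well, from 7237 to 5004, 5626 and 4610 in that order.

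**Figure D4:**
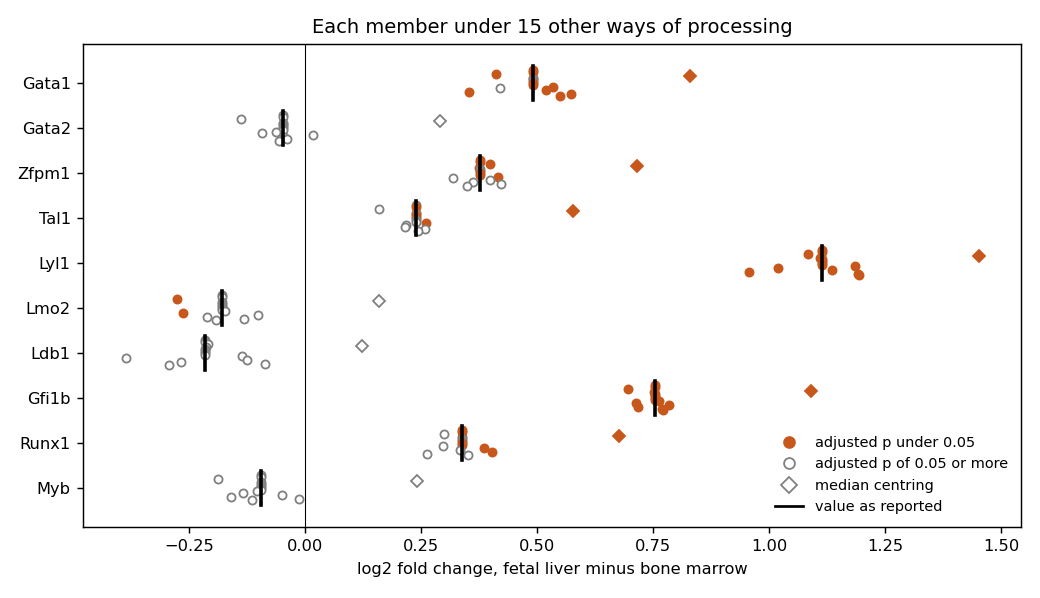
Log2 fold change of the brightest probe set of each member under 15 other ways of processing, beside the value as reported (black line). Filled points have an adjusted p under 0.05; diamonds are median centring, which shifts all probe sets towards fetal liver and carries Gata2, Lmo2, Ldb1 and Myb across 0, while Lyl1 stays between 0.96 and 1.45 and Gfi1b between 0.69 and 1.09.

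Of 11 further partners of LDB1 and RUNX1, 1 was called higher and 1 lower, where 15.9% of all genes were called higher and 17.3% lower, with a median log2 fold change of -0.078, against 0.041 over all genes. Ssbp3, a stabiliser of LDB1, was higher (0.34 ± 0.11, adjusted p = 0.0378) and Tcf4, an E-protein that can pair with TAL1, lower (-0.32 ± 0.089, adjusted p = 0.0268). The Ssbp3 call was lost when any array was left out (adjusted p 0.0549 to 0.124), and the Tcf4 call without fetal liver replicate 3 or any bone marrow array (0.0591 to 0.111). Median centring, which moves all probe sets up, left Tcf4 at 0.022 (adjusted p = 0.898), so its direction was not kept. Cbfb, the partner subunit of RUNX1, had 3911, 3430.1 and 3594 in fetal liver, against 4274, 4411 and 4031 in bone marrow, without overlap but not called (-0.22 ± 0.084, adjusted p = 0.0809). The corepressor gene Runx1t1 was dim and not called either (-1.14 ± 0.49, adjusted p = 0.117).

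Of 13 subunits of NuRD, the deacetylase and remodelling complex that FOG1 recruits, 1 was called higher and 1 lower, against the same 15.9% and 17.3% of all genes, with a median of 0.062. After median centring 9 of the 13 were called, but so were 12515 of all 27022 probe sets, 9848 of them higher. Chd3, one of the alternative remodelling ATPases, had 11.9, 8.32 and 8.83 in fetal liver, against 97.8, 129 and 109 in bone marrow. As the control level exceeded 2 of the 3 fetal liver arrays, it is given as at least 10.1-fold lower in fetal liver (adjusted p = 4.18e-05). Chd3 passed the filter on low signals through bone marrow alone, so the filter partly fixes the lower count. Chd4, the related ATPase, was bright in both tissues and not called (0.29 ± 0.11, adjusted p = 0.0761). Mbd3, which links the complex together, was called higher (0.48 ± 0.14, adjusted p = 0.0346), a call that held only without fetal liver replicate 1 among the 6 arrays left out in turn (adjusted p 0.0792 to 0.101 otherwise). Gatad2a was not called (0.16 ± 0.075, adjusted p = 0.148).

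The CoREST complex, through which GFI1B represses, and the coactivators gave 0 higher and 2 lower of 11 tested genes by limma, where 15.9% and 17.3% of all genes were called, with a median of 0.057. The 2 were Phf21a (-0.29 ± 0.085, adjusted p = 0.0288) and Rcor3 (-0.38 ± 0.11, adjusted p = 0.0296). Phf21a lost its call without fetal liver replicate 3 or any bone marrow array (0.0758 to 0.116), and Rcor3 without any array but fetal liver replicate 1 (0.0510 to 0.111). Neither was called after median centring, where Phf21a changed sign (0.043, adjusted p = 0.799) and Rcor3 stood at -0.042 (adjusted p = 0.797). Kdm1a, the histone demethylase of this complex, had 3886, 4661 and 3943 in fetal liver, against 3360.3, 3717 and 3491 in bone marrow, without overlap and not called (0.24 ± 0.094, adjusted p = 0.0913). Brd2, a bromodomain coactivator gene, was not called (-0.29 ± 0.13, adjusted p = 0.134).

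Several relatives of the members from the same gene families had signals too low to test. Of 12 relatives on the array 6 passed the filter, and of these 1 was called higher and 2 lower, where 33.2% of all genes were called in either direction, with a median of -0.77. Gfi1, given above, was one of the 2 lower genes. Runx3, a RUNX1 paralogue, was lower, with 1117, 764 and 779.6 in fetal liver, against 2168, 1795 and 1714 in bone marrow (log2 fold change -1.11 ± 0.16, adjusted p = 0.000847). Mybl2, a MYB relative that drives cell cycle genes, was higher, with 797, 684 and 696 in fetal liver, against 432, 493 and 535 in bone marrow (0.58 ± 0.14, adjusted p = 0.0128). Runx3 and Mybl2 kept their calls in all 15 alternatives. Mybl1 lay near the threshold (-1.04 ± 0.35, adjusted p = 0.0524). The filter used the mean over all arrays, and the mean log2 signals of Gfi1 and Mybl1 in fetal liver lay below its level. Both passed through bone marrow, so the filter partly fixes the lower count and the median of the relatives.

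Of 16 tested genes known as GATA1 targets, 2 were called higher and 4 lower, which is near the share of all genes called in either direction (33.2%), with a median of -0.064. The higher ones were Gp9, a subunit of the platelet receptor for von Willebrand factor (1.23 ± 0.18, adjusted p = 0.000870), and Epor, the erythropoietin receptor (0.59 ± 0.17, adjusted p = 0.0287). The lower ones were the heme synthesis enzyme Alas2 (-4.11 ± 0.42, adjusted p = 9.01e-05), the red cell anion exchanger Slc4a1 (-3.56 ± 0.36, adjusted p = 8.62e-05), the mast cell protease Cpa3 (-0.84 ± 0.25, adjusted p = 0.0323) and the stem cell factor receptor Kit (-0.62 ± 0.16, adjusted p = 0.0170). Epor lost its call without any one fetal liver array or bone marrow replicate 1 (adjusted p 0.0529 to 0.0781), Cpa3 without replicate 2 or 3 of either tissue (0.0836 to 0.115), and Kit without fetal liver replicate 3 or bone marrow replicate 2 or 3 (0.0543 to 0.0580). Median centring ended the calls of Cpa3 (-0.50, adjusted p = 0.113) and Kit (-0.28, adjusted p = 0.151).

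**Figure D5:**
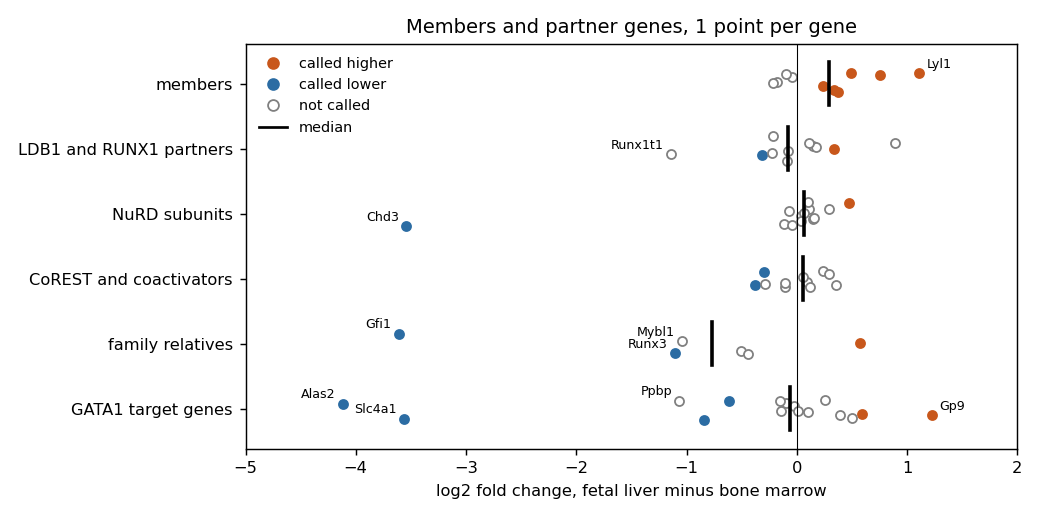
Tissue difference (log2 signal in fetal liver less that in bone marrow) of the members and of 5 lists of genes around them, 1 point per gene read from its brightest probe set. Orange points were called higher in fetal liver, blue lower and open points not called; black lines are list medians, which are 0.29 for the members and lie between -0.078 and 0.062 for the partner, complex and target lists; the median of the relatives is -0.77 over 6 genes.

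Markers of other cell types differed between the tissues alongside these genes. Beside the granulocyte markers given above, all 5 tested mast cell and basophil markers were called lower in fetal liver, where 17.3% of all genes were. The filter used the mean over all arrays, so markers dim in fetal liver could be tested through bone marrow alone. That filter partly fixes this count and the lymphoid and erythroid counts below. The summed signal of 8 mast cell and basophil genes was 259.9 to 354.8 in fetal liver, against 3999 to 5184 in bone marrow. Of these 8, 4 averaged below the control level in fetal liver and 2 in bone marrow. Of 7 tested lymphoid markers 5 were called lower, against the same 17.3% of all genes. The summed signal of 10 lymphoid genes was 1437 to 1572 in fetal liver and 3230 to 4842 in bone marrow. Of these 10, 4 averaged below the control level in fetal liver and 1 in bone marrow. Of 7 erythroid markers 1 was called higher and 3 lower, where 15.9% and 17.3% of all genes were. Their summed signal was 3489 to 4745 in fetal liver and 5031 to 13188 in bone marrow, where replicate 1 was lowest. Gata2, Lmo2, Runx1 and Myb are also transcribed in mast cells or other early blood cells. Gata1 and Gfi1b, both called higher, also act in erythroid cells, as given above, and whether such cells contributed to their signal was not tested. The part of these markers in the members' results was not tested.

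The genes most like Gata1 over the 6 arrays, by the root mean square difference between mean-centred log2 signals among 11645 genes, were Neurl4 (0.0446), Tmem177 (0.0552) and Fbxo5 (0.0558). Of these, Neurl4 (log2 fold change 0.53, adjusted p = 0.0187) and Fbxo5 (0.39, adjusted p = 0.0404) were called higher, and Tmem177 was not (0.54, adjusted p = 0.0577). For Gata2 the nearest genes were Srsf5 (0.0205), Pds5b (0.0256) and Strap (0.0256), none of which was called (adjusted p 0.587 to 0.948). All these genes were picked for likeness on the same arrays. Fold changes near those of Gata1 and Gata2 were therefore fixed by the choice, and their calls add no result.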

How the data were processed

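RNA of 6 sorted samples was hybridised to Affymetrix mouse arrays, 3 per tissue. Each deposited value is a linear intensity, the MAS5 signal of a probe set on an array, as named in the submitters' processing notes, without a version. The 2% trimmed mean was 500 on every array. The number of arrays limits the precision. Of 45101 probe sets, 64 were controls and 34945 had 1 gene symbol; 932 had several and 9160 none, and these named no gene. Symbols were checked through Entrez identifiers against RefSeq genes of GRCm38.p6 (34741 matched, 0 changed). The files give no coordinates.

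Signals were log2-transformed without an offset. Probe sets whose mean log2 signal over all arrays exceeded the 40th percentile (a signal of 22.9) were kept, leaving 27022. limma (3.58.1, R 4.3.3) fitted tissue alone with an intensity-trended prior, with Benjamini-Hochberg adjustment over all 27022. A gene was read from its brightest probe set. For a group averaging below the control level (27 bacterial probe sets), the fold is a bound, with arrays below the level set to it. Within-array ratios had exact permutation tests (scipy 1.17.1). No set test was run.

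Alternatives were no filter, a 60th percentile filter, median centring, quantile normalization, an added offset of 7.54 (the 25th percentile), no trend, unmoderated variances, 1 probe set a gene, averaged probe sets for the ratios, a replicate block and leaving out each array. Named genes were all member probe sets, per partner list the 4 with the smallest adjusted p and all called genes, Gfi1, and the 3 genes most like Gata1 and Gata2. Cell type markers are given as lists, and the megakaryocyte markers also by name. Gene lists were matched by symbol, and members with no such probe set (2 of the CoREST and coactivator list, 1 relative, 5 targets) were not analysed here. Members and lists were chosen with earlier results of these data known. Samples were not treated as paired by replicate number. Deviations of same-numbered arrays correlated at 0.0013, 0.11 and -0.16, and those of other-numbered arrays between -0.11 and 0.12. These few values cannot settle whether the numbers pair samples. Figures used Python 3.11.15 and matplotlib 3.10.9.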

Additional observations from a re-analysis of the deposited data

How the results depend on the processing

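Lyl1 and Gfi1b kept their direction and their call in all 15 alternatives and Gata1 in 12; the differences of the 3 within-array ratios kept their signs in all 9 alternatives run for them, between 0.40 and 0.61 for Gata1 minus Gata2, -0.95 and -0.74 for Tal1 minus Lyl1, and 3.87 and 4.77 for Gfi1b minus Gfi1. The causes of the changes below were not tested, except that fewer arrays or probe sets enter where some are left out. Median centring reversed Gata2 (0.29 and, on 1450333_a_at, 0.17), Lmo2 (0.16), Ldb1 (0.12) and Myb (0.24 and, on 1450194_a_at, 0.043), none of them called. It also turned Tcf4 (0.022) and Phf21a (0.043), both called lower as reported, and left Rcor3 at -0.042, all without a call. Leaving out single arrays moved Gata2 between -0.093 and 0.016, the second without fetal liver replicate 3.

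Over all probe sets 7237 were called, 3189 higher and 4048 lower. Median centring gave 12515 (9848 higher, 2667 lower) and unmoderated variances 3932 (1704 and 2228). The fit without the trend gave 5793 (2250 and 3543), and the 60th percentile filter 2428 lower. Leaving out 1 array gave 4610 to 7761 calls, 1800 to 3389 higher and 2810 to 4372 lower. Of the member genes, 6 were called as reported, 2 without the trend, 3 with unmoderated variances and 3 to 5 without 1 array. Quantile normalization called 5, without Tal1 (adjusted p = 0.114) or Runx1 (0.0515) and with Lmo2 called lower (0.00962). Of the member probe sets, 8 were called as reported, 2 without the trend, 3 with unmoderated variances and 3 to 7 without 1 array. Calls among the LDB1 and RUNX1 partners were 2 as reported, 1 with no filter, 0 without the trend or moderation, 1 with the replicate block and 0 to 3 without 1 array. For NuRD they were 2 as reported, 1 with the 60th percentile filter, without the trend or without moderation, 9 with median centring and 1 to 2 without 1 array. For CoREST and coactivators they were 2 as reported, 5 with median centring, 0 without the trend, 1 without moderation and 0 to 3 without 1 array. For GATA1 targets they were 6 as reported, 3 without the trend, 2 without moderation and 3 to 6 without 1 array; for relatives they were 3 as reported, 2 to 4 over all alternatives and 3 to 4 without 1 array.

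With replicate number as a block 6904 probe sets and 5 member genes were called; Tal1 (adjusted p = 0.0643) and Runx1 1440878_at (0.0521) lost their calls. Whether the numbers pair the samples is not known.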

Other observations

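Gata3, the GATA family member of T cells and basophils, was named after its values were seen and did not pass the filter on low signals. Its signal was 10.1, 8.56 and 0.978 in fetal liver, against 76.8, 69.9 and 94.0 in bone marrow, so the control level of 10.6 lay above all 3 fetal liver arrays and below all 3 bone marrow arrays. It was at least 7.49-fold lower in fetal liver (limma adjusted p = 0.00574 in the fit with no filter). Gata4, Zfpm2, Tal2 and Lmo3 averaged below the control level in 1 or both tissues.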
